A study of Drosophila melanogaster with 16 samples.

Results

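Cyclins and the proteins that drive the cell cycle alongside them were followed as labelled mRNA in the larval brain of Drosophila melanogaster. The set was chosen by name and holds 10 genes, CycA, CycB, CycB3, CycD, CycE, stg, Cdk1, Cdk2, E2f1 and dap. All of their transcript rows in both deposited tables were taken, 30 of the 31049 transcripts and 10 of the 14458 genes measured, and each gene was read per transcript and as the sum of its transcripts. Labelled RNA came from brains of larvae at the L3 stage that express CD:UPRT, a fusion of cytosine deaminase and uracil phosphoribosyltransferase that lets a cell turn fed 5-ethynylcytosine into a tagged form of uridine and build it into new RNA. In larvae of genotype insc_CD:UPRT the fusion was driven by insc-Gal4, and these libraries are labelled neuroblast. In larvae of genotype nsyb_CD:UPRT it was driven by nSyb-Gal4, and these libraries are labelled neuron. Each genotype was sampled directly after a 12 h feeding pulse and after 3, 6 and 12 h of chase on an excess of untagged uridine, with 2 libraries per genotype and time point, 16 in all. All larvae, in every group, carried the transgene and were fed the label, so no group lacks it.

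Each group is limited by its driver. insc-Gal4 is active in neuroblasts and in other neural progenitors, both genotypes were purified from crudely dissected central nervous system by binding of biotinylated RNA to beads, and no unlabelled control was analysed here. The methods describe feeding in triplicate and biotinylation of duplicate RNA samples, while the labels number 2 replicates. The p-values below therefore measure the spread between these libraries, which may be technical.

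In a dividing cell, cyclins rise and fall and switch on the cyclin-dependent kinases that they bind. Cyclin D and cyclin E act in G1 and at entry into S phase, E2f1 switches on genes of DNA replication, and dacapo (dap) holds the cyclin E kinase in check. Cyclins A, B and B3 act with Cdk1 at mitosis, after the phosphatase String (stg, the fly Cdc25) has removed an inhibitory phosphate from Cdk1. Larval neuroblasts divide repeatedly and mature neurons do not divide, and a pulse followed by a chase reads how long labelled mRNA lasts once labelling ends.

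The deposited values are estimated counts, given below as counts per 1000000 of a library's total (CPM). Library totals ran from 11053940 to 31713720 in neuroblasts and from 44317916 to 211109573 in neurons, so 3 counts, used here as the floor of detection, stand for 0.0946 to 0.271 CPM in neuroblast libraries and 0.0142 to 0.0677 CPM in neuron libraries. Genes with at least 10 counts numbered 1868 to 10398 per neuroblast library and 921 to 14019 per neuron library, lowest in replicate 1 of the 12 h chase in neuroblasts and in both pulse libraries in neurons. Mitochondrial transcripts took 9.66 to 12.8% of counts in neuroblasts, against 86.3 to 92.1% in neuron replicate 1 and 2.75 to 11.9% in neuron replicate 2. The labels were checked against marker genes at the pulse. A list of 7 neuroblast genes summed to 51.9 and 115.4 CPM in neuroblasts, against 0.158 and 0.194 CPM in neurons, where 5 of the 7 had at most 3 counts in each library. In neuroblasts only insc (36.6 and 17.1 CPM) and nerfin-1 (40.8 and 5.10 CPM) were detected in both replicates. The genes wor and klu were at 0 in replicate 2, with 12.7 and 25.3 CPM in replicate 1. The genes ase, mira and dpn were at 0 in replicate 1, with 8.13, 21.3 and 0.239 CPM in replicate 2. The 7 neuron genes summed to 1208 and 1735 CPM in neuroblasts, against 401 and 4971 CPM in neurons, so this list does not separate the 2 genotypes. Over all libraries the neuroblast list summed to 0.542 to 115.4 CPM in neuroblasts and 0.158 to 275 CPM in neurons. The medians were 47.0 and 51.7 CPM, so over all libraries that list does not separate the genotypes either. Glial genes summed to 194 and 248 CPM in neuroblasts, against 18.5 and 189 CPM in neurons at the pulse. The 4 imaginal disc genes, which mark tissue that can stay attached to a dissected brain, summed to 62.3 and 85.1 CPM in neuroblasts, against 0 and 0.019 CPM in neurons at the pulse, with all 4 at no more than 3 counts in each neuron library. Fat body and hemolymph genes summed to 7404 to 55325 CPM over all neuroblast libraries, against 3.17 to 4429 CPM over all neuron libraries.

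Few of the cell cycle genes were detected in the libraries with the fewest detected genes, but elsewhere detection did not follow that number closely. At 3 h of chase, neuron replicate 2 had 3 of the 10 among 6274 genes, and neuroblast replicate 1 had 8 among 6308. At least 10 counts were found for 10 and 8 of the 10 genes in the neuroblast pulse libraries (replicates 1 and 2), 8 and 10 at 3 h of chase, 8 and 7 at 6 h and 2 and 7 at 12 h. In neurons 0 and 1 of the genes were found at the pulse, 8 and 3 at 3 h of chase, 4 and 9 at 6 h and 6 and 10 at 12 h. The 2 neuron pulse libraries and replicate 1 of the 12 h chase in neuroblasts lay lowest both for these genes and for genes in general. Over the 8 neuron libraries, the Spearman correlation of a gene's CPM with the number of genes detected in the library lay between 0.38 for dap and 0.91 for Cdk2, and over the 8 neuroblast libraries between -0.37 for Cdk1 and 0.51 for CycE. The points share labelling, purification and depth, so the part of detection in each level was not tested.

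**Figure D1:**
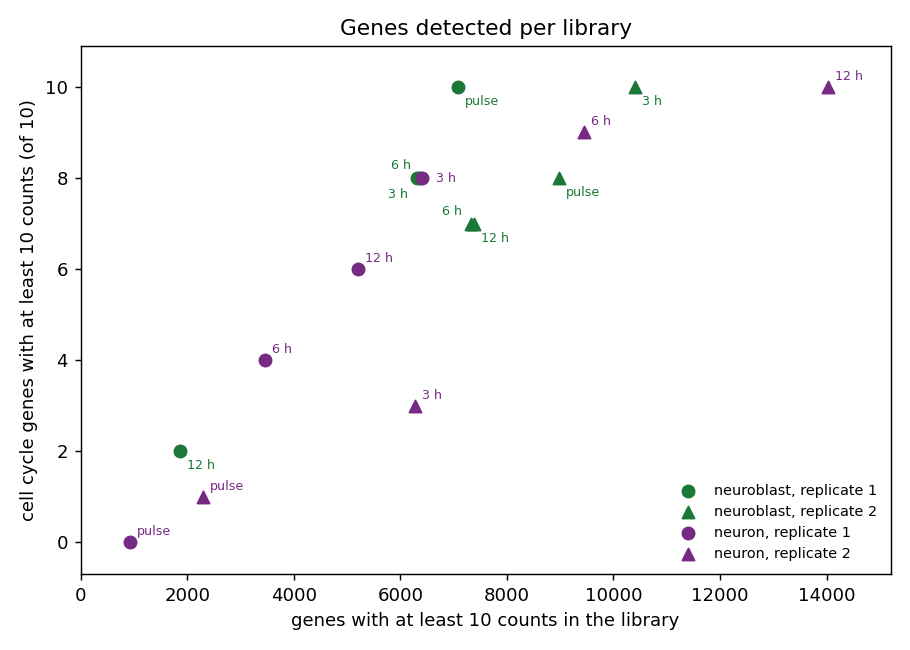
Number of the 10 cell cycle genes with at least 10 estimated counts (vertical axis) against the number of all genes with at least 10 counts (horizontal axis) in each of the 16 libraries, labelled by time point, with neuroblasts in green, neurons in purple, replicate 1 as circles and replicate 2 as triangles. The neuron pulse libraries detected 0 and 1 of the genes among 921 and 2291 genes, and the neuroblast library with the fewest (12 h, replicate 1) detected 2 among 1868.

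At the end of the pulse, labelled mRNA of the 10 genes summed to 776 and 242 CPM in neuroblasts, against 0.0451 and 6.52 CPM in neurons. Levels can be compared between genes only per length, as transcripts per 1000000 (TPM), and on that scale E2f1 led in neuroblasts with 232 and 37.1 TPM. It was followed by stg, Cdk2, CycB, CycA, dap, CycD, CycB3 and Cdk1, with CycE last at 11.7 and 10.76 TPM. Each gene overlapped its neighbour in this order, since the 2 replicates of most genes lay far apart. The closest replicates were those of CycB, with 31.4 and 30.4 TPM, of CycE, and of dap, with 21.8 and 18.3 TPM.

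**Figure D2:**
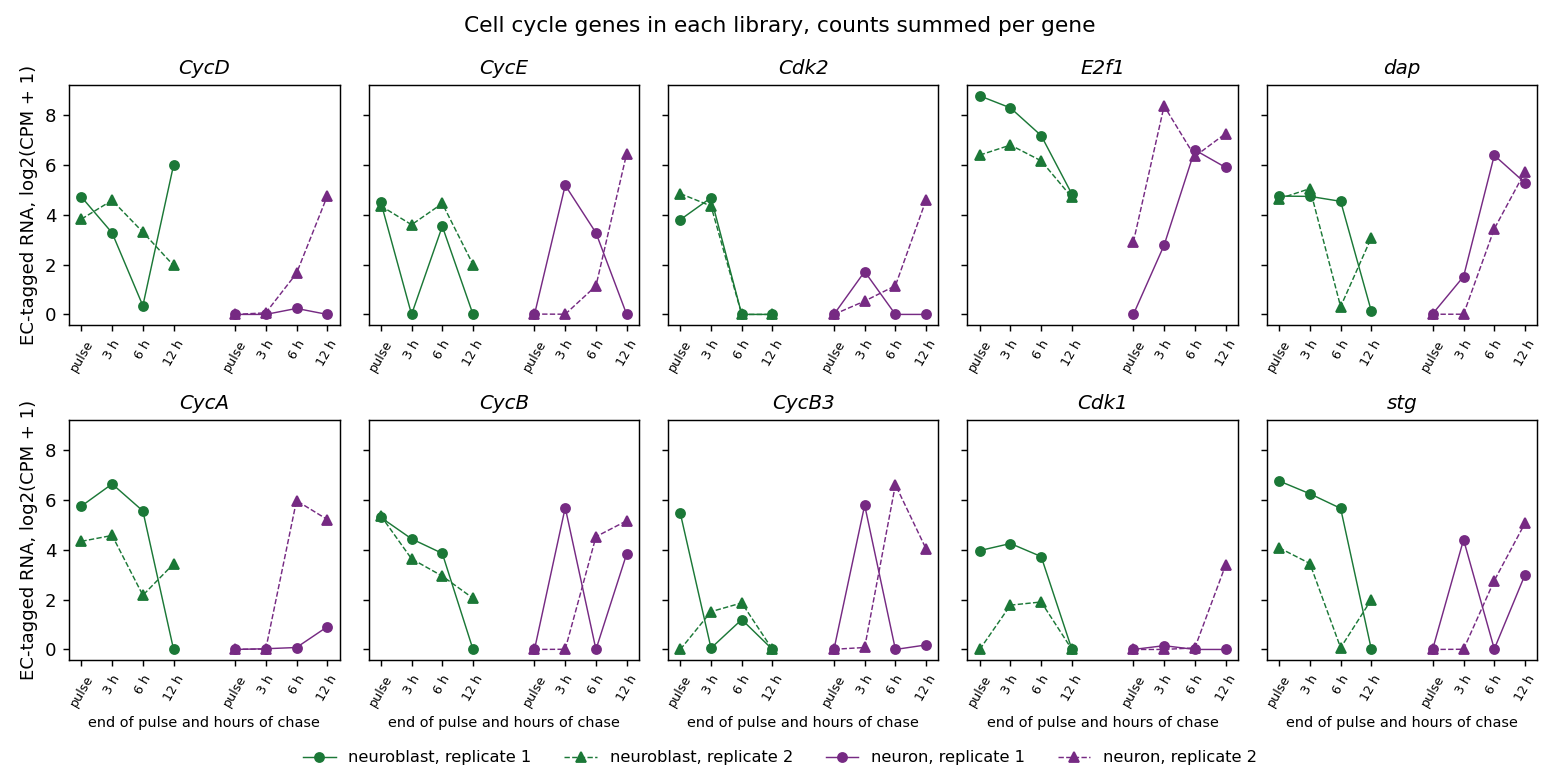
Level of each of the 10 genes in each library, as log2 of CPM plus 1 (vertical axis, 1 panel a gene), at the pulse and by hours of chase (horizontal axis), with neuroblasts left in green, neurons right in purple, circles and solid lines for replicate 1 and triangles and dashed lines for replicate 2. In neuroblasts most genes stood highest at the pulse or at 3 h, with CycD in replicate 1 at 12 h as an exception (62.7 CPM), and in neurons all values at the pulse but that of E2f1 in replicate 2 (6.49 CPM) lay at or near 0.

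Over the chase in neuroblasts, labelled mRNA of most of these genes was lower after 12 h than at the pulse, but none of the 10 had a slope that passed the test. Both libraries of the 12 h chase lay below both pulse libraries for 7 of the 10 genes, CycA, CycB, CycE, stg, Cdk2, E2f1 and dap, where 47.9% of the 9589 genes with at least 10 counts in a neuroblast pulse library did. The same held after 6 h for 4 of 10 (CycB, CycD, Cdk2 and dap), where 29.6% of those genes did, and after 3 h for 2 of 10 (CycB and CycE), where 12.1% did. No gene of the 10 lay above both pulse libraries at any chase time, against 9.75%, 5.37% and 1.93% of those genes at 3, 6 and 12 h. By edgeR's quasi-likelihood test of the slope on hours of chase, with Benjamini-Hochberg adjustment over 10042 genes, 0 of 10 passed an adjusted p of 0.05 in either direction. Over all genes 0.607% were called with a positive slope and 0.0% with a negative one. At an unadjusted p under 0.05, 1 of the 10 passed (Cdk2, negative), where 3.93% of all genes had a negative and 4.1% a positive slope at that level. DESeq2 called 1 of the 10, CycD, with a positive slope, where it called 10.4% of all genes positive. The median slope of the 10 genes was -0.22 log2 per hour against -0.10 for all genes, of which 69.3% were negative. Scaling by total counts moved both medians down, to -0.34 and -0.22. Within replicate 1 alone the median of the 10 was -0.66 (-0.50 for all genes) and within replicate 2 alone -0.11 (-0.06 for all genes), and no gene of the 10 was called when either replicate, or any 1 library, was left out.

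Cyclin D, which binds Cdk4 in G1 and promotes growth, lies on chromosome X from 15906822 to 15909676 on the minus strand of BDGP6.54. CycD had 25.2 and 13.2 CPM at the pulse in neuroblasts, 8.64 and 22.9 CPM after 3 h, 0.273 and 8.86 CPM after 6 h, and 62.7 and 2.90 CPM after 12 h. The 2 replicates took different courses, and the highest value of all came from replicate 1 at 12 h, the library in which 1868 genes were detected. The slope was 0.23 log2 per hour (SE 0.14, edgeR quasi-likelihood, adjusted p = 0.647). It rested on that library, since without it the slope was -0.15. DESeq2 put the slope of CycD at 0.51 (adjusted p = 0.00972).

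Cyclin E partners Cdk2 at the start of S phase. CycE spans 15727581 to 15748150 on the minus strand of chromosome arm 2L and shares exonic bases with 2 genes on the other strand, so its counts are uncertain if strand was not used. CycE had 21.6 and 19.5 CPM at the pulse in neuroblasts, 0 and 11.1 CPM after 3 h, 10.6 and 20.8 CPM after 6 h, and 0 and 3.00 CPM after 12 h. Replicate 1 alternated between detection and 0, and replicate 2 kept between 11.1 and 20.8 CPM up to 6 h. Its slope was -0.16 (SE 0.32, edgeR quasi-likelihood, adjusted p = 0.971).

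Cdk2, the kinase of cyclin E, lies on 3R from 20735623 to 20738414 on the plus strand and shares exonic bases with CG17267 on the minus strand. It had 12.9 and 27.7 CPM at the pulse in neuroblasts, 24.6 and 19.4 CPM after 3 h, and 0 CPM in all 4 libraries of the 6 h and 12 h chase. Among the 10 genes it was the one with a clear break, between 3 h and 6 h, in both replicates. The slope was the steepest of the 10, -1.17 log2 per hour (SE 0.53, unadjusted p = 0.0315, edgeR quasi-likelihood, adjusted p = 0.613), and a fitted slope that ends in zeros depends on how zeros are treated.

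E2f1, the activating E2F transcription factor, lies on 3R from 21620304 to 21660871 on the minus strand, and an antisense gene shares exonic bases with it. In neuroblasts E2f1 had 434 and 82.8 CPM at the pulse, 311 and 109.9 CPM after 3 h, 143 and 70.5 CPM after 6 h, and 27.3 and 24.8 CPM after 12 h. E2f1 was 1 of 2 genes with at least 10 counts in both 12 h libraries, the other being CycD, and replicate 1 was lower at every step. The mean after 3, 6 and 12 h was 81.3%, 41.3% and 10.1% of the pulse mean of 259 ± 249 CPM (SD, n = 2). The slope was -0.15 (SE 0.11, edgeR quasi-likelihood, adjusted p = 0.737).

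Dacapo belongs to the p21 and p27 family of kinase inhibitors and acts when cells leave the cycle. dap, on arm 2R, had 25.8 and 23.9 CPM at the pulse in neuroblasts, 25.6 and 32.0 CPM after 3 h, 22.2 and 0.241 CPM after 6 h, and 0.0905 and 7.45 CPM after 12 h. The 4 libraries of the pulse and the 3 h chase lay close together, and the replicates parted at 6 h. The slope was -0.14 (SE 0.24, edgeR quasi-likelihood, adjusted p = 0.954).

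Among the mitotic genes, cyclin B gave the most regular course. CycB, on arm 2R, had 38.3 and 40.2 CPM at the pulse in neuroblasts (mean 39.2 ± 1.36, SD, n = 2), 20.7 and 11.4 CPM after 3 h, 13.5 and 6.69 CPM after 6 h, and 0 and 3.15 CPM after 12 h. It was the only gene of the 10 that was lower at each step in both replicates, and no library of the chase overlapped the pulse. The means were 40.9%, 25.7% and 4.01% of the pulse after 3, 6 and 12 h. Its slope was -0.27 (SE 0.25, edgeR quasi-likelihood, adjusted p = 0.871).

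Cyclin A acts in S phase and early mitosis. CycA, on arm 3L from 11826719 to 11833578 on the minus strand, had 52.8 and 19.2 CPM at the pulse in neuroblasts, 98.7 and 22.8 CPM after 3 h, 46.0 and 3.51 CPM after 6 h, and 0 and 9.80 CPM after 12 h. Both replicates were highest after 3 h, but the 3 h range overlapped the pulse. The slope was -0.18 (SE 0.21, edgeR quasi-likelihood, adjusted p = 0.928).

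The phosphatase gene stg, on 3R from 29251826 to 29255800 on the minus strand, had 107 and 15.9 CPM at the pulse in neuroblasts, 74.8 and 9.90 CPM after 3 h, 49.5 and 0.0481 CPM after 6 h, and 0 and 3.00 CPM after 12 h. Replicate 1 stood above replicate 2 up to 6 h, and both were below the pulse after 12 h. The slope of stg was -0.35 (SE 0.23, edgeR quasi-likelihood, adjusted p = 0.690).

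The remaining mitotic genes were detected in fewer libraries. Cdk1, the mitotic kinase, on 2L from 10384739 to 10386262 on the minus strand, had 14.6 and 0 CPM at the pulse in neuroblasts, 18.0 and 2.43 CPM after 3 h, 12.2 and 2.74 CPM after 6 h, and 0 CPM in both libraries after 12 h. CycB3, which acts at anaphase, on 3R from 24867934 to 24870816 on the minus strand, had 43.3 and 0 CPM at the pulse, 0.0387 and 1.86 CPM after 3 h, 1.30 and 2.65 CPM after 6 h, and 0 CPM in both libraries after 12 h. Both genes were at 0 in replicate 2 of the pulse and were detected in that replicate after 3 h and 6 h. Their slopes were -0.58 (SE 0.67, adjusted p = 0.921) for Cdk1 and -0.75 (SE 0.46, adjusted p = 0.652) for CycB3 (edgeR quasi-likelihood).

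As a description of these courses, a single exponential through the pulse mean was fitted to the scaled counts. In neuroblasts it gave a half-life for 9 of the 10 genes, with a median of 451 min, and none for CycD. The scaling sets each library against its own labelled RNA, so these half-lives are relative to other transcripts and not absolute. With total counts only the median was 276 min. CycB had 197 min, Cdk2 244 min and stg 300 min, and over the alternative fits CycB ranged from 150 to 297 min, Cdk2 from 163 to 386 min and stg from 190 to 307 min. E2f1 had 451 min, with 236 to 547 min over the alternatives that gave a value and none without replicate 1. CycA, CycB3 and Cdk1 likewise had none without replicate 1. The other values were less stable, with CycE at 484 min but 122 to 2260 min over the alternatives, dap at 657 min, Cdk1 at 915 min, CycA at 1200 min and CycB3 at 42.6 min. A half-life longer than the chase is an extrapolation, and CycB3 rests on 1 pulse library. In neurons no half-life could be fitted for any of the 10.

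In neurons the same genes were nearly undetected at the pulse and appeared in single chase libraries. Members at 0 in both libraries of a group numbered 4 at the neuron pulse (CycB, CycD, Cdk1 and Cdk2), and only E2f1 reached 10 counts in a pulse library. The 2 replicates of a chase time often disagreed by orders of magnitude. CycB had 0 and 0 CPM at the pulse in neurons, 50.7 and 0.0056 CPM after 3 h, 0 and 22.0 CPM after 6 h, and 13.3 and 34.8 CPM after 12 h. CycB3 had 0 and 0.0047 CPM at the pulse, 54.2 and 0.0561 CPM after 3 h, 0 and 96.5 CPM after 6 h, and 0.134 and 15.3 CPM after 12 h. Both cyclins were thus high in replicate 1 and close to 0 in replicate 2 at 3 h, with the order turned round at 6 h.

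The G1 and S phase genes showed the same scatter in neurons. CycD had 0 and 0 CPM at the pulse, 0 and 0.0449 CPM after 3 h, 0.181 and 2.14 CPM after 6 h, and 0 and 25.8 CPM after 12 h. CycE had 0 and 0.0095 CPM at the pulse, 35.2 and 0.0056 CPM after 3 h, 8.66 and 1.21 CPM after 6 h, and 0 and 86.7 CPM after 12 h. Cdk2 had 0 and 0 CPM at the pulse, 2.29 and 0.449 CPM after 3 h, 0 and 1.22 CPM after 6 h, and 0 and 23.2 CPM after 12 h. All 3 genes had their highest neuron value, and all 3 more than 20 CPM, in replicate 2 of the 12 h chase, the library in which 14019 genes were detected, and were at 0 in replicate 1 of that time. E2f1 was the most abundant, with 0 and 6.49 CPM at the pulse, 5.86 and 328 CPM after 3 h, 95.8 and 80.0 CPM after 6 h, and 58.6 and 152 CPM after 12 h. dap had 0.0226 and 0.0047 CPM at the pulse, 1.87 and 0.0056 CPM after 3 h, 82.3 and 9.79 CPM after 6 h, and 37.8 and 51.8 CPM after 12 h. E2f1 was the one gene of the 10 with at least 10 counts in a neuron pulse library, and it stood above both pulse libraries in both libraries after 6 h and after 12 h, where 16.3% and 26.1% of the 2716 genes with such counts did. CycA and dap also stood above both in all 4 of those libraries, from at most 1 count per pulse library.

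Of the other mitotic genes in neurons, CycA had 0 and 0.0047 CPM at the pulse, 0.0202 and 0.0112 CPM after 3 h, 0.0558 and 61.6 CPM after 6 h, and 0.878 and 36.1 CPM after 12 h. stg had 0.0226 and 0 CPM at the pulse, 20.1 and 0.0056 CPM after 3 h, 0.0139 and 5.79 CPM after 6 h, and 6.98 and 32.5 CPM after 12 h. Cdk1 had 0 and 0 CPM at the pulse, 0.111 and 0 CPM after 3 h, 0 and 0.0461 CPM after 6 h, and 0 and 9.41 CPM after 12 h. Cdk1 was above the floor of 3 counts in only 3 of the 8 neuron libraries. Because mitochondrial RNA filled most of neuron replicate 1, CPM there understates a gene's share of the other RNA. With mitochondrial transcripts left out of the total, dap had 1043 and 10.6 CPM after 6 h and 449 and 58.8 CPM after 12 h, and the replicates of CycB at 12 h stood at 158 and 39.5 CPM.

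None of the 10 slopes in neurons passed edgeR's quasi-likelihood test, where 0.0% of 11800 genes were called in either direction. At an unadjusted p under 0.05, 0 of the 10 passed, where 8.74% of all genes had a positive and 1.64% a negative slope, and DESeq2 called 1, dap, at 0.84 log2 per hour (adjusted p = 0.0179), where it called 2.93% of all genes positive. The nearest in edgeR were Cdk1 at 0.56 (SE 0.32, adjusted p = 0.539) and CycD at 0.90 (SE 0.52, adjusted p = 0.542). The median slope of the 10 was 0.21, as was that of all genes, in a fit that did not pair the replicates. Without the pulse, an alternative chosen after seeing the data, the medians were 0.06 and 0.0061, and with DESeq2's size factors 0.09 and 0.02. Pairing the neuron libraries by their numbers moved the medians to 0.56 for the 10 and 0.41 for all genes, again with 0 called. Within neuron replicate 1 alone the median of the 10 was 0.05 (0.12 for all genes) and within replicate 2 alone 1.08 (0.69 for all genes), with 0 called in each.

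**Figure D3:**
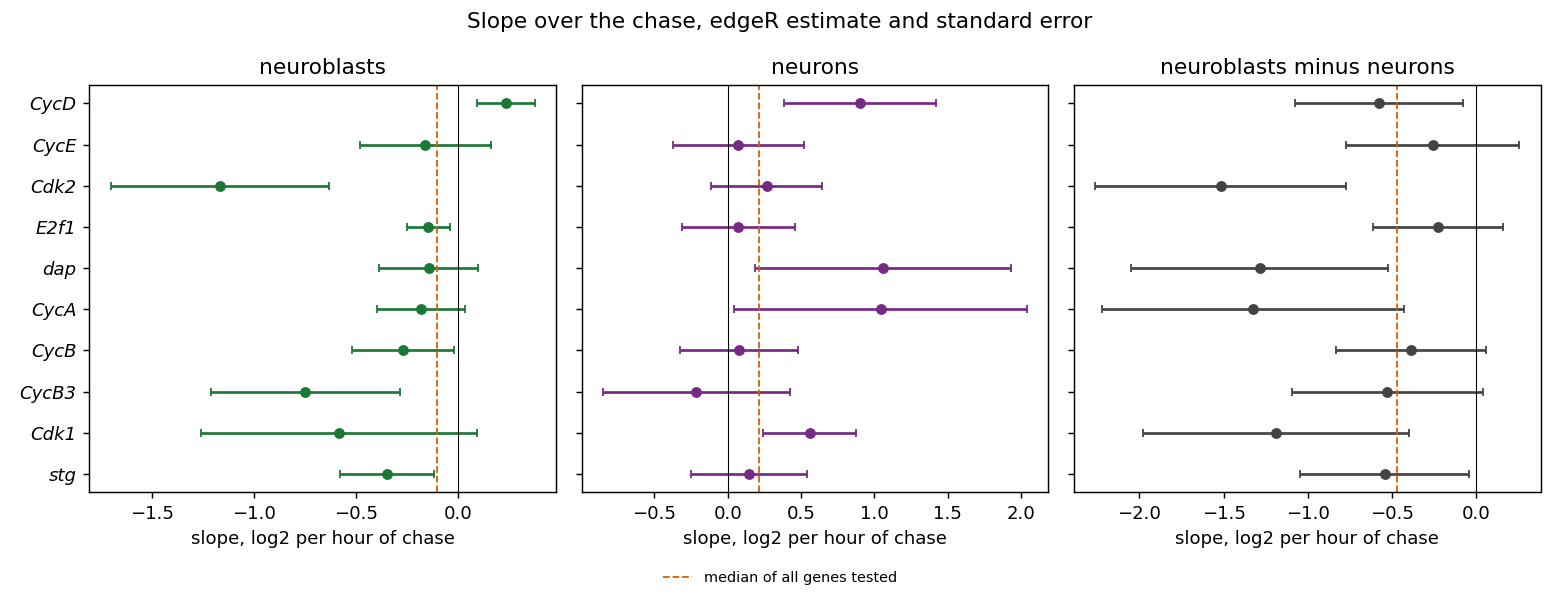
Slope of each gene on hours of chase (log2 per hour, edgeR estimate with its standard error as the bar) in neuroblasts, in neurons, and as neuroblasts minus neurons, with the median of all genes tested as a dashed line. 9 of the 10 neuroblast slopes lie below 0 and 9 of the 10 neuron slopes above it (8 and 7 with DESeq2's size factors), all 10 differences lie below 0 (8 with those size factors), and none of the 30 estimates passed the adjusted threshold of 0.05.

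Whether the slopes differed between cell types was tested directly. Slopes in neuroblasts minus slopes in neurons were negative for all 10 genes, with a median of -0.56 against -0.47 for all genes, and for 8 of 10 with DESeq2's size factors. By edgeR's quasi-likelihood test 0 of 10 passed the adjusted threshold, where 0.516% of 12787 genes were called negative (66 genes) and 0.0547% positive (7 genes). With DESeq2's size factors in the same test the split over all genes was 92 negative and 112 positive. With the replicate number as a block within each cell type, no gene was called over all genes. The medians there were -0.83 for the 10 and -0.65 for all genes. At an unadjusted p under 0.05, 1 of the 10 passed, Cdk2 at -1.52 (SE 0.74, adjusted p = 0.319), where 13.0% of all genes were negative and 1.4% positive at that level. DESeq2 called dap at -0.95 (adjusted p = 0.0168), where it called 8.45% of all genes negative. In single libraries, CycA, CycB, stg, E2f1 and dap were lower after 12 h than at the pulse in both neuroblast replicates and higher in both neuron replicates, 5 of 10 genes where 20.9% of all genes did so. The few genes detected in the neuron pulse libraries and in replicate 1 of the neuroblast 12 h chase move with this pattern, and their part in it was not tested. Without both of those times the median difference was -0.16, against -0.09 for all genes.

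The pulse itself gave the widest gap between cell types. Labelled RNA of 8 of the 10 genes stood higher in both neuroblast libraries than in both neuron libraries, where 62.0% of all genes with at least 10 counts in 1 of these 4 libraries did. In bulk RNA of this kind, fewer labelled cells of a type and less labelled RNA per cell cannot be told apart. Counts in neuroblasts were 717 and 504 for CycB, 473 and 165 for CycD and 242 and 348 for Cdk2, against 0 and 0 for each in neurons. The mean of the 2 neuroblast libraries was set against a floor of 3 counts in the smaller of the 2 neuron libraries (0.0677 CPM). That mean was 579-fold higher for CycB, 300-fold for Cdk2 and 284-fold for CycD. With mitochondrial transcripts left out of the totals these folds were 74.0-fold, 38.3-fold and 36.3-fold. The lower neuroblast library alone gives smaller folds, so these are not lower bounds for each library. For genes with 1 or 2 counts over both neuron libraries, the ratio of pooled counts carries a wide interval. It was 10100 for CycA (95% interval 1800 to 397000, exact and conditional on the total), 18000 for stg (3230 to 712000), 2650 for CycE (731 to 21900) and 3200 for dap (883 to 26500), intervals that cover counting error only. E2f1 differed from the others in its neuron counts, with 8139 and 1039 counts in neuroblasts, against 0 and 1371 in neurons. In CPM these were 434 and 82.8 in neuroblasts, against 0 and 6.49 in neurons, without overlap. Its ratio of pooled counts was 54.7 (51.6 to 57.9, counting error only), with all neuron counts from replicate 2.

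By edgeR's quasi-likelihood test over the 4 pulse libraries, 7 of the 8 genes that passed the filter were called higher in neuroblasts, where 58.5% of the 6802 genes tested were called higher (3981 genes) and 0.47% lower (32 genes). CycB3 and Cdk1, each at 0 in a neuroblast library, did not pass the filter. The fitted differences were 11.37 on the log2 scale for CycB (SE 2.76, adjusted p = 0.000723), 10.40 for Cdk2 (adjusted p = 0.000769), 10.36 for CycD (adjusted p = 0.000779), 6.92 for stg (adjusted p = 0.00409), 6.67 for CycA (adjusted p = 0.00152), 4.91 for CycE (adjusted p = 0.0042) and 4.86 for dap (adjusted p = 0.00542). With zeros in the neuron libraries these fitted values depend on the prior count and are no bounds. The median of the 8 was 6.80 against 5.21 for all genes, and 3.59 against 1.78 with DESeq2's size factors. E2f1 was at -0.30 (SE 3.76, adjusted p = 0.945), but its sign turned with total counts as the scale. Without replicate 2 of the neuron pulse, the library that holds all of its neuron counts, it was 14.46 (adjusted p = 0.0210).

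These 7 calls depend on the scaling and on the libraries kept. Total counts, and total counts without mitochondrial transcripts, each called 7 of the 8 higher, where 4769 and 4697 of 6802 genes were. With DESeq2's size factors in edgeR 0 of the 8 and 0 of all 6802 genes were called. DESeq2's own test called 1 (CycB at 4.71, adjusted p = 0.0172) and split all genes into 1326 higher (19.5%) and 1379 lower (20.3%). Without 1 pulse library a cell type has 1 library left and no spread of its own. Leaving out neuroblast replicate 1 or 2 gave the 8 a median of 5.35 or 7.23, against 5.13 or 4.95 for all genes. Leaving out neuron replicate 1 or 2 gave 8.49 or 10.74, against 5.15 or 10.92. The neuroblast, glial, imaginal disc and fat body markers were all higher in both neuroblast pulse libraries too, by the sums given above, while the neuron markers overlapped, and their part in the difference was not tested.

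The gap narrowed over the chase. Labelled RNA was higher in both neuroblast libraries than in both neuron libraries after 3 h for 5 of 10 genes (CycA, CycD, Cdk1, Cdk2 and dap), where 30.7% of all genes were, and after 6 h for 2 of 10 (CycE and Cdk1), where 21.1% were. After 12 h none of the 10 was higher without overlap, where 2.88% were, and 5 were lower without overlap (CycB, CycB3, stg, E2f1 and dap), where 22.4% of all genes were. For dap the values at 12 h were 0.0905 and 7.45 CPM in neuroblasts, against 37.8 and 51.8 CPM in neurons. Summed over the 10 genes they were 90.1 and 54.1 CPM in neuroblasts, against 118 and 467 CPM in neurons. Over all time points together, edgeR's quasi-likelihood test called 0 of 10, where 0.0782% of 12787 genes were called higher in neuroblasts (10 genes) and 0.86% lower (110 genes). With the replicate block those numbers were 190 higher and 186 lower, again with 0 of the 10. At an unadjusted p under 0.05 it had 1, CycD at 5.65 (adjusted p = 0.293), where 3.79% of all genes were higher and 12.8% lower at that level. DESeq2 called 2, where it called 6.0% of all genes higher and 13.9% lower, CycD at 5.43 (adjusted p = 0.00333) and CycB3 at -5.50 (adjusted p = 0.0161). The median of the 10 was -0.60 against 0.0072 for all genes, and 1.16 against 0.88 with total counts, so its sign depends on the scale. Total counts called 3 genes higher and 8 lower. Within replicate 1 alone the median was 1.94 (1.37 for all genes) and within replicate 2 alone 2.05 (-0.04 for all genes), so both differ in sign from the pooled value.

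Per transcript, a gene's counts mostly sat on 1 row in a library, and the row was often another one in the next library. All 30 rows had at least 10 counts in at least 1 library, 27 in a neuroblast library and 26 in a neuron library, but only 12 had at least 10 counts in both replicates of a neuroblast time point and 11 in both of a neuron time point. For the 8 genes with more than 1 row, among 83 pairs of a gene and a library with at least 10 counts, the leading row held at least 90% of the gene's counts in 64 (77.1%). Among genes with more than 1 row and at least 10 counts in both replicates of a group, the same row led in both replicates in 19 of 31 cases (61.3%), against 53.6% of 22217 cases over all genes. Rows of 1 gene overlap, so the split between them is the assignment of the counting program and is uncertain.

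**Figure D4:**
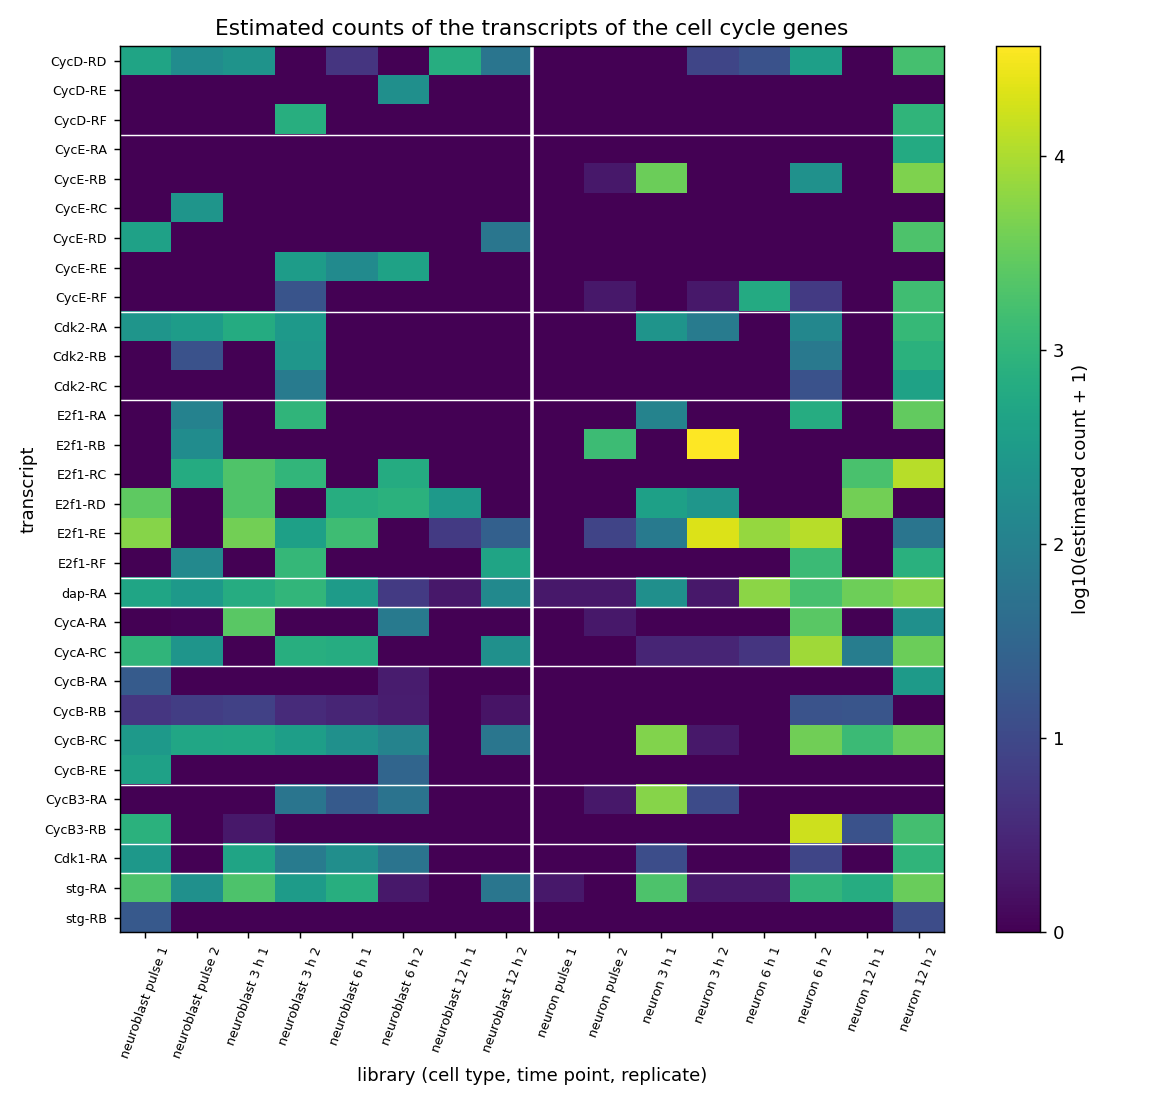
Estimated counts of the 30 transcript rows (rows, grouped by gene) in the 16 libraries (columns, neuroblasts left and neurons right, by time point and replicate), coloured by log10 of the counts plus 1, from dark at 0 to bright. Most genes show 1 bright row per library, which stays the same for stg and changes between libraries for CycE and E2f1.

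stg held to 1 row, since stg-RA led in every library where the gene reached 10 counts. Cdk2-RA likewise led wherever Cdk2 reached 10 counts, but with only 46.6% of its counts in replicate 2 of the 3 h chase in neuroblasts and with 61.7% and 47.6% in replicate 2 of the 6 h and 12 h chase in neurons. CycB-RC led wherever CycB reached 10 counts except in replicate 1 of the neuroblast pulse, where CycB-RE, which has an exon more, held 57.2%. Cdk1 and dap have 1 row each.

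Other genes moved between rows that differ mainly outside the coding part. CycE counts at the neuroblast pulse were all on CycE-RD in replicate 1 (405 counts) and all on CycE-RC in replicate 2 (244 counts), and after 6 h on CycE-RE in both replicates. These 3 rows have a coding length of 2127 bases in common. In neurons CycE-RB, which has a shorter coding length of 1806 bases, led in 3 of the 4 libraries with at least 10 counts, and CycE-RF in the other. CycA switched between CycA-RC, with a 3' UTR of 933 bases, and CycA-RA, with 569 bases. At the pulse in neuroblasts CycA-RC held all 990 counts of replicate 1, and after 3 h CycA-RA held all 2546 counts of replicate 1 while CycA-RC held all 723 of replicate 2. CycB3 likewise switched between CycB3-RB, with a 3' UTR of 867 bases, and CycB3-RA, with 445 bases. CycD counts lay on CycD-RD in most libraries, but on CycD-RF in replicate 2 of the 3 h chase in neuroblasts (725 counts) and on CycD-RE in replicate 2 of the 6 h chase (184 counts), rows with 1 coding length and different 5' UTRs. For E2f1, 4 different rows led among the neuroblast libraries and 4 among the neuron libraries.

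No transcript row of these genes had a slope that passed edgeR's quasi-likelihood test in either cell type. In neuroblasts 0 of 18 rows were called and 1 had an unadjusted p under 0.05, where 0.0555% of 16228 rows were called positive and 0.00616% negative, and 1.31% and 5.52% at the unadjusted level. DESeq2 called 0 of these 18, against 1.73% of all rows positive and 1.74% negative. In neurons 0 of 18 were called and 2 had an unadjusted p under 0.05, where 0.0% of 18103 rows were called positive and 0.0331% negative, and 9.9% and 1.82% at the unadjusted level. DESeq2 called 3 in neurons, CycB3-RB at 1.02, dap-RA at 0.82 and, of the E2f1 rows, E2f1-RB at -2.93, where it called 2.97% of all rows positive and 8.99% negative. Of the 26 rows tested for a difference between the cell types, 0 were called and 7 had an unadjusted p under 0.05, where 2.57% of 23032 rows were called negative (591) and 0.521% positive (120), and 16.4% and 2.54% at the unadjusted level. The split over all rows was 411 negative and 223 positive with DESeq2's size factors, and 6 negative and 27 positive with the replicate block. Closest were CycB-RA at -1.51 (adjusted p = 0.0523) and E2f1-RC at -2.59 (adjusted p = 0.0529), E2f1-RC had a slope of -0.85 in neuroblasts, against 1.71 in neurons. CycB-RA rests on 2 libraries, with 19.4 counts in replicate 1 of the neuroblast pulse and 305 counts in replicate 2 of the neuron 12 h chase. DESeq2 called 5 of the 26, 4 negative and 1 positive, where it called 9.64% of all rows negative and 6.33% positive.

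The other cell cycle regulators, a list of 53 genes of which 52 were measured, were tested in the same fits. The list holds partners of these kinases, the mitotic and checkpoint kinases, the anaphase-promoting complex and the SCF ligase, Rb and E2F factors. None of the 48 tested in neuroblasts and none of the 45 tested in neurons was called by edgeR's quasi-likelihood test, with 3 at an unadjusted p under 0.05 in each cell type. At that level 4.1% of all genes were positive and 3.93% negative in neuroblasts, and 8.74% and 1.64% in neurons. DESeq2 called 4 in neuroblasts, 3 positive and 1 negative, where it called 10.4% of all genes positive and 41 of 10042 negative. In neurons it called 5, 3 positive and 2 negative, where it called 2.93% of all genes positive and 972 of 11800 negative. The median slopes of these regulators were -0.17 in neuroblasts and 0.30 in neurons. The difference of slopes had a median of -0.78 and 0 of 52 called, with 8 at an unadjusted p under 0.05 and 7 called by DESeq2. At the unadjusted level 13.0% of all genes were negative and 1.4% positive. DESeq2 called 8.45% of all genes negative and 872 of 12787 positive. Over all time points 0 of 52 were called, with 4 at an unadjusted p under 0.05 and 7 called by DESeq2. There 3.79% of all genes were higher and 12.8% lower at the unadjusted level, and DESeq2 called 6.0% higher and 13.9% lower.

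At the pulse, 28 of the 34 regulators tested were called higher in neuroblasts and 0 lower, against the 58.5% of all genes given above, with a median of 6.08. The smallest p belonged to morula (mr), a subunit of the anaphase-promoting complex, at 10.80 (adjusted p = 0.000723), to fizzy (fzy), its Cdc20 activator, at 10.42 (adjusted p = 0.000769), and to Cks30A, a small partner of Cdk1, at 10.29 (adjusted p = 0.000837), all by edgeR's quasi-likelihood test. DESeq2 called 5 of the 34 higher and 3 lower, where it called 19.5% of all genes higher and 20.3% lower. DESeq2's size factors in edgeR left 0 of the 28 calls, where 0 of all 6802 genes were called. No filter left 5 of 48 tested, where 1117 of 10871 genes were called higher. Without neuroblast pulse replicate 1 or 2 the median of the 34 was 5.78 or 6.11. mr was called in 6 of 11 alternatives, fzy in 5 and Cks30A in 5. In the test of transcript slopes between cell types 2 of 87 rows were called, where 2.57% of all rows were called negative and 0.521% positive. FBtr0085800 of CycG, an atypical cyclin, was at 2.75 (adjusted p = 0.00946) and FBtr0070126 of SkpA, a subunit of the SCF ligase that marks proteins for destruction, at -2.87 (adjusted p = 0.0188). CycG was called in 20 of 26 alternatives and SkpA in 16 of 26. The call of CycG was lost without replicate 2 of the neuroblast 12 h chase (1.56) and without replicate 2 of the neuron pulse (2.47, edgeR, adjusted p = 0.0690). That of SkpA was lost without replicate 1 of the neuroblast pulse (-1.13), either library of the neuroblast 12 h chase (-3.07 and -3.34) or replicate 2 of the neuron 12 h chase (-1.53). With the replicate block the call of SkpA was lost (adjusted p = 0.213) and that of CycG stayed (adjusted p = 0.0155).

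The levels of the 10 genes were also compared with each other over the libraries. Spearman correlations of CPM between all 45 pairs of the genes over the 16 libraries were positive, from 0.0887 to 0.845 with a median of 0.485. The medians were 0.464 over the 8 neuroblast libraries and 0.552 over the 8 neuron libraries. The genes whose levels were most like the mean of the 10, on a log2 scale with 1 CPM added, were Btk, with a Spearman correlation of 0.982 over 16 libraries, RhoGAP19D, with 0.968, and CG9171, with 0.968, among 12777 genes whose median was 0.447. Btk, a Tec-family tyrosine kinase, had 118.6 and 98.95 CPM at the pulse and 0.181 and 26.3 CPM after 12 h in neuroblasts, against 0 and 0.005 CPM at the pulse and 0.702 and 161 CPM after 12 h in neurons. These values were low in the same libraries as the cell cycle genes. All points share libraries, in which the number of detected genes varied, so the correlations are descriptions of these libraries.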

How the data were processed

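The data are 16 libraries of biotin-purified, EC-tagged RNA from larval brains, with genotype, time point and replicate taken from the labels. The authors trimmed reads with Trimmomatic and quantified them with kallisto, and the submitters' processing notes name the BDGP6 build. Tool versions, annotation release and strand setting are not given in the sources used here. The deposited values are estimated counts per transcript, not normalized, in 1 table per cell type, and 105 of the 31049 transcripts are only in the neuroblast table. No column was left without a sample. Gene names, coordinates and transcript lengths came from Ensembl's BDGP6.54 annotation, which matched 99.3% of rows in the neuroblast table and 99.6% in the neuron table. Rows without a match held 0.0116 to 0.332% of counts. They were added to no gene and were kept under their own names at the gene level.

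Estimated counts were summed per gene, rounded to whole numbers, filtered with filterByExpr by group and scaled by TMM. Slopes on hours of chase, their difference between cell types, and neuroblasts over neurons were tested with edgeR's quasi-likelihood test (edgeR 4.0.16, R 4.3.3) and adjusted by Benjamini-Hochberg over all features tested, at a threshold of 0.05. The scripts were tested on simulated data with a smaller spread between libraries than the real fits had. That test does not show how the fits behave at the spread of these data. CPM and TPM were computed from the estimated counts, a gene counted as detected at 10 counts, and half-lives are single exponentials through the pulse mean of TMM-scaled counts.

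The genes named were all 10 of the set, other regulators with an adjusted p under 0.05 (at most 3 per direction and comparison), and the 3 genes most like the set over the libraries. Lists of neuroblast, neuron, glial, fat body and hemolymph, and imaginal disc markers checked the labels. The genes, lists and tests were chosen with earlier results of these data known.

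Alternatives were DESeq2's size factors and test (DESeq2 1.42.0), total counts with and without mitochondrial transcripts, no filter, 1 transcript per gene, the 12 h chase against the pulse, the replicate number as a block, and each library or replicate left out. Setting time points with few detected genes aside, and at the pulse a replicate block shared by the cell types, were chosen after seeing the data. The replicate numbers of the labels were checked for pairing by the correlation of deviations from group means between time points. All 6 were over 0.1 in neurons (0.140 to 0.367), where the numbers were taken to pair the libraries. In neuroblasts 5 of 6 were over 0.1 (0.0643 to 0.224). The ranges of the cell types overlap, so this check does not settle pairing in neuroblasts.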

Additional observations from a re-analysis of the deposited data

How the results depend on the processing

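Over alternatives, 0 of the 10 genes were called for the slopes and for their difference under most settings. The exceptions were 1 gene (CycD) in neuroblasts with DESeq2's size factors and 1 with DESeq2's test, 1 gene (dap) in neurons with DESeq2's test, and 1 (dap) in the difference with DESeq2's test. For transcript rows DESeq2's test called 3 in neurons and 5 in the difference, and total counts with or without mitochondrial transcripts called 2 each in the difference. Of all 23032 rows, total counts called 1026 negative and 44 positive there, and without mitochondrial transcripts 1010 and 41. At the pulse, DESeq2's size factors called 0, no filter 2 and DESeq2's test 1 of the genes, against 7, and over all time points DESeq2's test called 2, against 0. With no filter 1117 of all 10871 genes tested at the pulse were called higher. Leaving out single libraries or replicates gave 0 to 7 at the pulse, 0 to 1 for transcript rows in the difference (E2f1-RC without neuroblast 6C replicate 2, CycB3-RB without neuron 6C replicate 2) and 0 elsewhere.

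In 3 cases an alternative gave a called value of the other sign, 14.46 for E2f1 at the pulse without neuron 12P replicate 2 (E2f1 ranged from -2.90 to 15.04 over the libraries and replicates left out), and, with DESeq2's test, -11.76 for the row RB of CycE and -7.91 for the row RB of E2f1 in the difference of transcript slopes. Signs also turned without a call, as for CycD's neuroblast slope (-0.15 without neuroblast 12C replicate 1) and for E2f1 at the pulse (6.32 with total counts). Positive neuron slopes numbered 9 of 10, but 7 with DESeq2's size factors and 6 without neuron 12C replicate 2. The cause was not tested. Over all genes, DESeq2's size factors called 954 positive neuroblast slopes and its test 1041, against 61, and total counts called 1. In neurons DESeq2's test called 346 positive and 972 negative slopes, against 0. At the pulse no filter called 1117 genes higher and DESeq2's size factors 0, against 3981.

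With the replicate block no gene of the 10 was called in any slope test or over all time points, as without it. In neuroblasts, where it is not settled whether the numbers pair the libraries, the block called 145 genes positive, against 61. At the pulse a block within each cell type leaves no residual degrees of freedom. A replicate block shared by the cell types, chosen after seeing the data and with numbers that no label says pair the genotypes, called 0 of the 8 genes there, against 7, with 5 at an unadjusted p under 0.05 and a median of 6.58, and 0 of all genes. With 2 libraries per group and a spread between libraries this wide, a slope of these genes that missed the threshold was not detectable here and is not shown to be absent.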
